A study of Homo sapiens with 6 samples.

Results

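The genes described here are 9 amino acid transporters of the plasma membrane: the light chains SLC7A11, SLC7A5 and SLC7A6, their shared heavy chain SLC3A2, the cationic amino acid transporter SLC7A1, the neutral amino acid exchangers SLC1A4 and SLC1A5, and the sodium-coupled transporters SLC38A1 and SLC38A2. They were chosen as a named list, with earlier results of these data known, and each symbol was found in both deposited tables, so that 9 of 13002 genes are members. Gene expression was read by RNA sequencing of OCI-AML2, a long-established cell line grown from human acute myeloid leukaemia, which the labels also call an engineered leukaemic stem cell line. Short hairpin RNAs (shRNAs) were carried in by lentivirus, and infected cells were kept in puromycin at 2.0 µg/mL for 3 days. The 3 groups had 2 libraries each, lettered A and B. One group carried a control hairpin, and the other groups carried independent hairpins, shRNA1 or shRNA2, against TAZ, the gene of tafazzin, which matures cardiolipin in mitochondria. In the labels the control is a scramble hairpin, but its columns in the deposited tables bear the name GFP. All groups, the control included, went through infection and puromycin selection. No source used here says that A and B were separate cultures, so the p-values rest on a spread between libraries that may be only technical.

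Transporters of this kind decide which amino acids a cell takes up and which it gives away in exchange. SLC3A2 is a glycoprotein that brings its light chains to the surface: with SLC7A11 it forms the cystine and glutamate exchanger that feeds glutathione synthesis, with SLC7A5 the exchanger for leucine and other large neutral amino acids, and with SLC7A6 an exchanger of arginine for neutral amino acids. SLC1A5 and SLC38A1 or SLC38A2 bring in glutamine, which can then leave the cell in exchange for leucine through SLC7A5. Several of these genes are known targets of ATF4, the transcription factor made when amino acids run short or the endoplasmic reticulum is stressed, and some are known targets of MYC or, in the case of SLC7A11, of NFE2L2.

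Values are RPKM, reads scaled by gene length and library depth, so levels can be compared between genes. Libraries held 18820634 to 20980799 reads in listed genes, and a member rested on 469 to 15085 reads in a library. TAZ, the targeted gene, measured 11.3 RPKM in control A and 11.9 in control B, 4.02 and 4.10 RPKM in shRNA1 A and B, and 1.47 and 2.13 RPKM in shRNA2 A and B. Of 8 markers of a myeloid leukaemia line, CEBPA, SPI1, PTPRC, CD33 and FLT3 lay between 19.7 and 147 RPKM in all libraries, MPO between 1.02 and 11.2 RPKM, KIT at or under 0.149 RPKM, and ANPEP was not analysed here. By limma MPO, a granule enzyme, fell 2.07-fold with shRNA1 and 6.40-fold with shRNA2 (adjusted p = 0.00528 and 0.00245). PTPRC, a surface phosphatase of blood cells, rose 1.52-fold and 1.49-fold (adjusted p = 0.0232 and 0.0371). CD33 and FLT3 rose with shRNA1, 1.77-fold and 1.60-fold (adjusted p = 0.006 and 0.0137), and were at 1.27-fold and 1.38-fold with shRNA2 (adjusted p = 0.121 and 0.0827). The PTPRC and FLT3 calls with shRNA1 were lost without shRNA1 B, and the PTPRC call with shRNA2 without any 1 of the 4 libraries compared. Of 13 markers of other cell types 4 were analysed here. CD3D and CD79A were under 1 RPKM in all libraries, and NCAM1 and PECAM1 lay between 6.02 and 22.7 RPKM. NCAM1 and PECAM1 rose with both hairpins by limma, though NCAM1 was no longer called without either library of the hairpin or, with shRNA2, without control A (adjusted p = 0.0576). Summed over these 4, the level was 16.9 and 14.4 RPKM in the control libraries, 32.3 and 28.6 RPKM in those of shRNA1, and 33.1 and 26.9 RPKM in those of shRNA2. The part of these markers in the results below was not tested.

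All 9 transporters were expressed in all 6 libraries, at levels that spread over an order of magnitude. By the mean over the 6 libraries the order was SLC3A2 (85.0 RPKM), SLC1A5 (80.0), SLC38A2 (76.9), SLC7A5 (76.3), SLC1A4 (37.6), SLC7A11 (22.9), SLC7A1 (13.4), SLC38A1 (10.97) and SLC7A6 (5.50). Each pair of neighbours in this order overlapped in the range of its 6 libraries. The 9 genes together gave 378 RPKM in control A and 700.3 RPKM in control B, 416 and 391 RPKM in the shRNA1 libraries, and 298 and 267 RPKM in the shRNA2 libraries.

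The control libraries disagreed on these genes far more than on most genes. Control B was above control A for 9 of 9 members, from 1.27-fold for SLC7A6 and 1.44-fold for SLC38A2 to 2.17-fold for SLC7A11, 2.22-fold for SLC7A1 and 2.68-fold for SLC7A5. On the log2(RPKM + 0.5) scale the median difference of the members, B minus A, was 0.78, against 0.01 over 10660 genes, whose differences had an SD of 0.34. At least 1.5-fold higher in control B were 7 of 9 members and 1.89% of all genes. With shRNA1, B was above A for 4 of 9 members, with shRNA2 for 3 of 9, and 0 members were at least 1.5-fold higher in B in either group. The levels of each member are therefore given for each control library apart, with its fold change without 1 of them where this changed a call. A fit of a hairpin against 1 control takes its spread from the hairpin libraries alone. It leaves out the gap between the controls, so its adjusted p and calls understate the spread of these genes. What set control B apart was not tested.

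**Figure D1:**
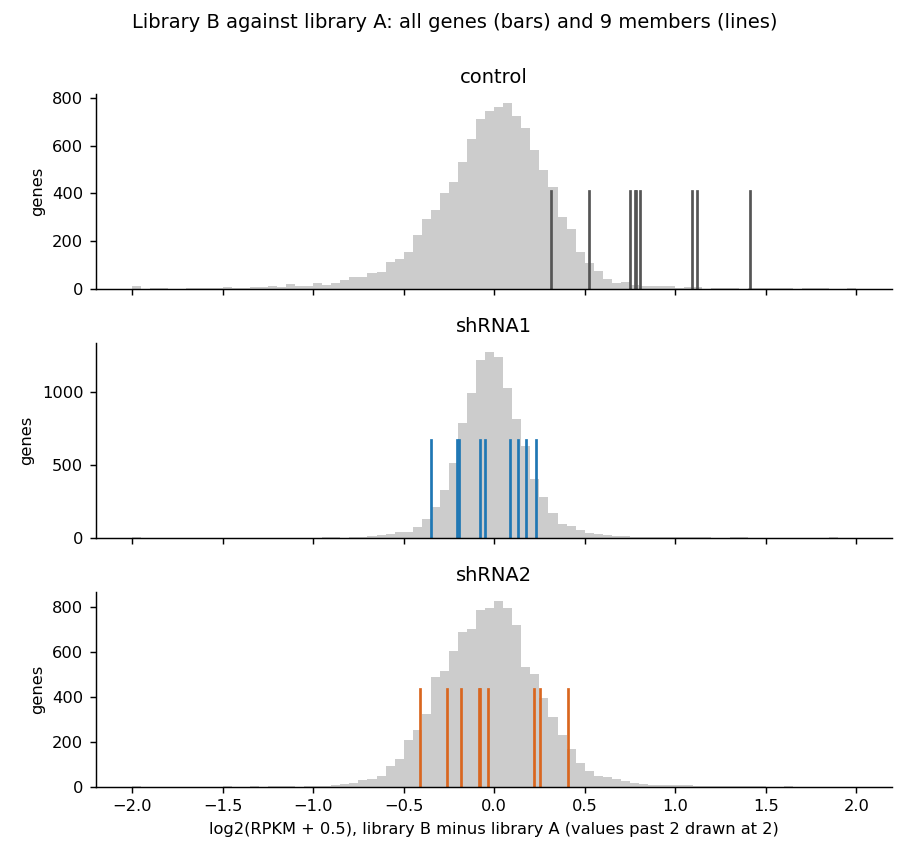
Difference between library B and library A of each group, as log2(RPKM + 0.5) of B minus A, with all genes of at least 1 RPKM as grey bars (number of genes) and the 9 members as coloured lines. In the control all 9 lines lie to the right of 0, with a median of 0.78, while with shRNA1 and shRNA2 they lie on both sides.

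**Figure D2:**
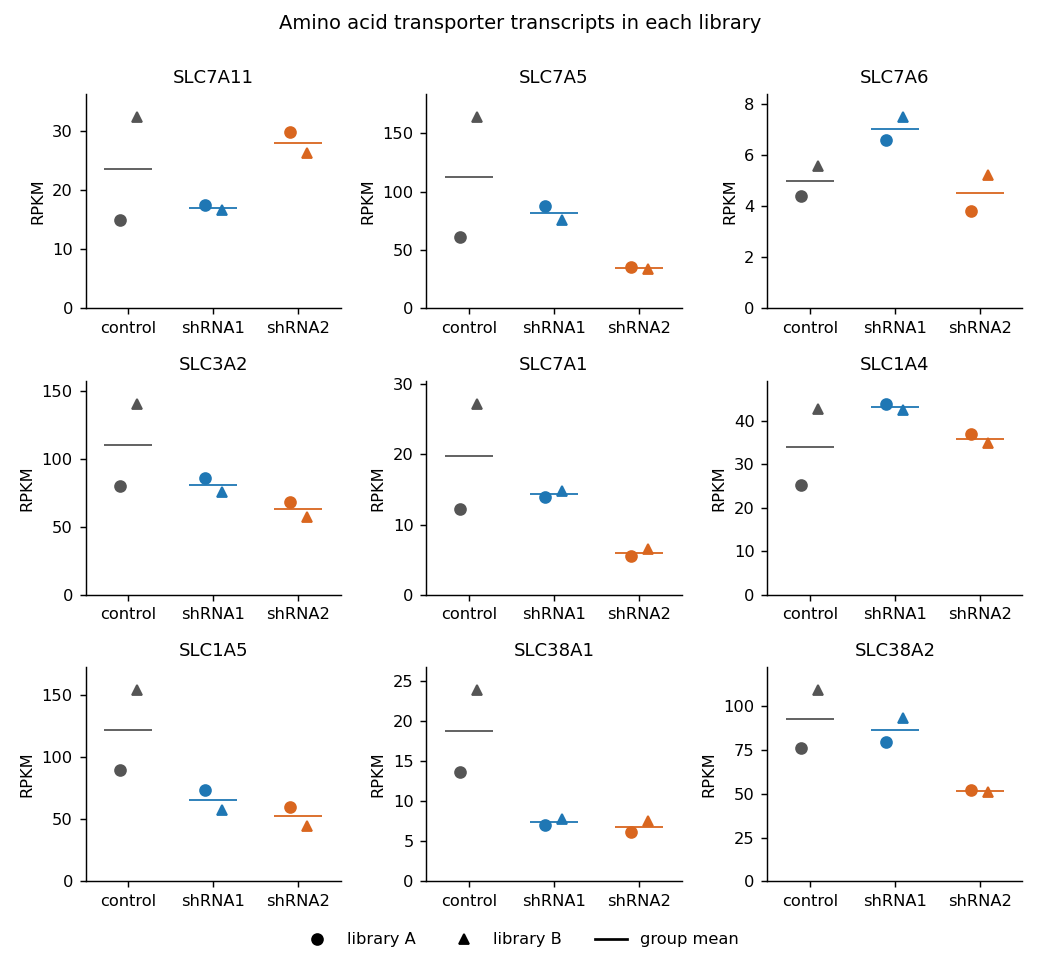
RPKM of each transporter in the 6 libraries, with circles for library A, triangles for library B and a line at the mean of each group, on linear axes that start at 0. In the control B is above A for all 9 genes, and only SLC1A5 and SLC38A1 have both shRNA1 and shRNA2 libraries below both controls.

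Promoters of the members were searched for motifs of ATF4, MYC and NFE2L2, the known regulators named above. RefSeq promoter sequences of build GRCh38.p14 ran from 250 bases before a transcript start to 50 after it. They gave 14 promoters for 8 of the members. No promoter was given for SLC7A11, so that member was not searched. The motifs, searched on both strands, were TGATGNAA (a composite site of ATF4 and a C/EBP partner), CACGTG (the E-box of MYC and MAX, the same on both strands) and TGACNNNGC (the antioxidant response element that NFE2L2 binds). They do not overlap one another in the windows shown. The composite was in 5 of 14 member promoters, those of SLC1A4, SLC1A5, SLC38A1, SLC3A2 and SLC7A1, against 3.62% of 35116 promoters. The E-box was in 2 of 14, of SLC7A5 and SLC1A5, against 7.26%, and the antioxidant element in 5 of 14 against 13.3%. A match describes letters only and is no evidence of binding. Of the members with the composite, SLC38A1 fell with both hairpins, SLC1A5 and SLC7A1 fell with shRNA2, and SLC1A4 and SLC3A2 were called with neither. Of the members searched that have no composite in these windows, SLC7A5 and SLC38A2 fell with shRNA2, and SLC7A6 was called with neither. Whether the motif bears on these calls was not tested.

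The windows below show the composite in promoters of 4 members and the E-box in promoters of 2, so that both kinds of match can be read in place. Each is written 5′ to 3′ on the strand of its gene, with the motif in capitals. Positions count from the annotated start as 1. The composite of SLC1A4 lies at -7 (chr2:64989362-64989428, plus strand; read on the opposite strand), that of SLC1A5 at -97 of one of its starts (chr19:46784874-46784941, minus strand), that of SLC38A1 at -4 (chr12:46266487-46266550, minus strand) and that of SLC7A1 at 8 (chr13:29595659-29595711, minus strand). The E-box of SLC7A5 lies at -130 (chr16:87869602-87869667, minus strand) and that of SLC1A5 at -50 of another start (chr19:46787308-46787373, minus strand).
SLC1A4 composite: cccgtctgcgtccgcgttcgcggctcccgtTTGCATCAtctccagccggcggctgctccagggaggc
SLC1A5 composite: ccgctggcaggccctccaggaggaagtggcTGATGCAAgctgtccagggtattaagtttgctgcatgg
SLC38A1 composite: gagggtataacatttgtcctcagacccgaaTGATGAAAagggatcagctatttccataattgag
SLC7A1 composite: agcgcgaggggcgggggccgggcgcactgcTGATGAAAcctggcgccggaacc
SLC7A5 E-box: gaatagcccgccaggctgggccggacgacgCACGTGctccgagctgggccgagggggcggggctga
SLC1A5 E-box: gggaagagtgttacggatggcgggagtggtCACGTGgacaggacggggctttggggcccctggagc

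Against the control, 5 of the 9 transporters fell with shRNA2 and 1 with shRNA1. With shRNA1, 1 of 9 members fell (SLC38A1) and 0 rose by limma, where 8.58% of 10613 genes fell and 9.99% rose. By limma without adjustment 2 were lower and 1 higher at a p under 0.05, where 1839 and 1993 of 10613 genes were. The median log2 fold change of the members was -0.34, against 0.00 over all genes. With shRNA2, 5 of 9 members fell and 0 rose (SLC7A5, SLC7A1, SLC1A5, SLC38A1 and SLC38A2), where 7.61% of 10659 genes fell and 8.12% rose, and the median was -0.82, against 0.00. All 9 members passed the filter of a mean of 1 RPKM in each comparison. With the letter of the library as a replicate block, 2 members rose with shRNA1 (SLC7A6, adjusted p = 0.0158, and SLC1A4, 0.0362) and 2 fell (SLC38A1, and SLC1A5 at 0.000255), where 18% of all genes rose and 17.6% fell. With shRNA2, 6 fell and 0 rose in that fit, SLC3A2 being the sixth (adjusted p = 0.0105), where 20.3% of all genes fell and 18.8% rose. No label says that a letter marks a shared batch, so the fit without the block is the one reported. The comparisons share their control libraries, so their counts are not independent. In bulk RNA, fewer cells of a type and less RNA per cell cannot be told apart.

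These counts moved with single control libraries, in fits that leave out the gap between the controls. With shRNA1, 7 members fell and 0 rose without control A, where 14.9% of all genes fell and 16.2% rose. Without control B 2 fell and 3 rose, where 20.7% of all genes fell and 20.7% rose. The median of the 9 was then -0.90 and 0.19. With shRNA2, 6 fell and 0 rose without control A, where 7.02% of all genes fell and 7.98% rose. Without control B 4 fell and 1 rose, where 9.11% of all genes fell and 9.71% rose. The medians were -1.16 and -0.56. Counted by libraries that do not overlap, 2 members were lower and 1 higher with shRNA1 than both controls, where 32.5% and 33.5% of all genes were. With shRNA2, 6 were lower and 0 higher, where 31.1% and 31% of all genes were. In the authors' deposited tables, at an adjusted p under 0.05, 2 members fell and 1 rose with shRNA1, where 17.1% of genes fell and 18.8% rose, and 6 fell and 0 rose with shRNA2, where 18.9% fell and 19.9% rose.

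**Figure D3:**
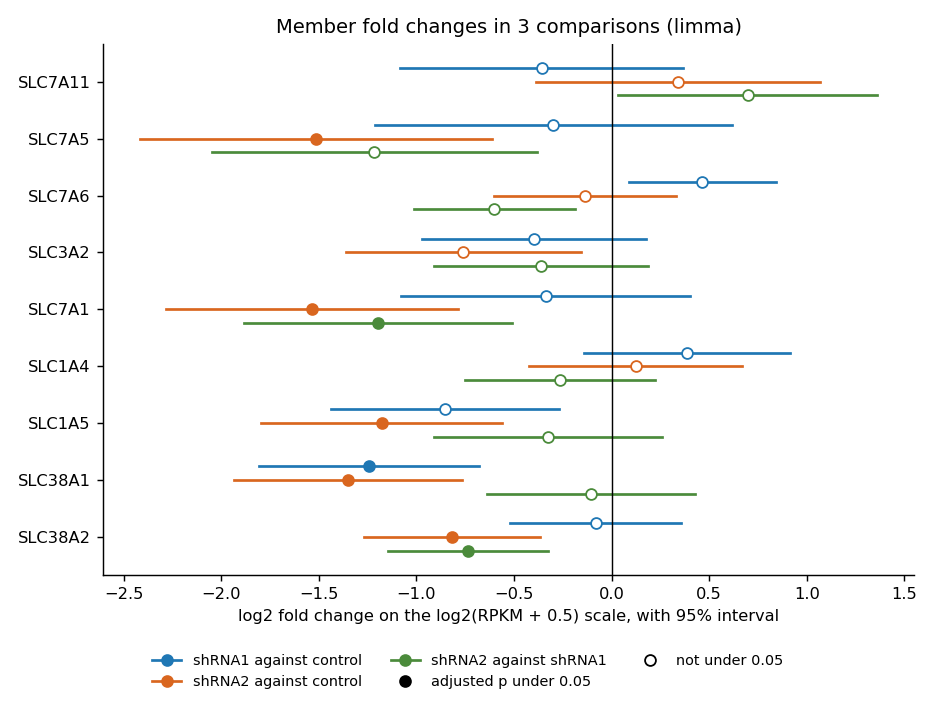
Log2 fold change of each member with its 95% interval (limma, log2(RPKM + 0.5) scale) for shRNA1 against control, shRNA2 against control and shRNA2 against shRNA1, with filled points where the adjusted p was under 0.05. SLC38A1 is filled for both hairpins against control, and SLC7A5, SLC7A1, SLC1A5 and SLC38A2 for shRNA2.

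Among the light chains, SLC7A5, the leucine exchanger, was the most abundant and fell with shRNA2. SLC7A5 (gene ID 8140) measured 61.2 RPKM in control A and 164 in control B, 87.4 and 75.7 RPKM in shRNA1 A and B, and 35.7 and 33.8 RPKM in shRNA2 A and B. Both shRNA2 libraries lay below all others, and the shRNA1 libraries lay between the 2 controls. Its log2 fold change with shRNA2 was -1.515 (SE 0.39, limma adjusted p = 0.0391), and the group was 1.76-fold below control A and 4.71-fold below control B. It was -0.81 without control B (adjusted p = 0.00972) and -2.22 without control A. The call was lost with no filter on low values (adjusted p = 0.0524), with quantile normalization (0.0617) and with robust empirical Bayes (0.122). With shRNA1 it was -0.30 (SE 0.39, adjusted p = 0.611). That value depended on the control library: it was 0.41 without control B and -1.005 without control A. The pseudogene copy SLC7A5P2 was at 0.168 to 0.926 RPKM, so reads placed on it were few beside those on SLC7A5.

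SLC7A11 (gene ID 23657), the cystine exchanger, had another pattern over the libraries than SLC7A5. It measured 14.9 RPKM in control A and 32.3 in control B, 17.5 and 16.6 RPKM in shRNA1 A and B, and 29.8 and 26.2 RPKM in shRNA2 A and B. Both shRNA2 libraries lay above both shRNA1 libraries, and both groups lay within the range of the controls. Its log2 fold change was -0.36 with shRNA1 (SE 0.31, 95% interval -1.08 to 0.37, adjusted p = 0.431) and 0.34 with shRNA2 (SE 0.31, interval -0.39 to 1.07, adjusted p = 0.482). Against single control libraries the value changed sign with each hairpin. With shRNA2 it was 0.89 without control B and -0.21 without control A. With shRNA1 it was -0.91 without control A and 0.19 without control B.

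SLC7A6 (gene ID 9057), the arginine and neutral amino acid exchanger, was the least abundant member. It measured 4.38 RPKM in control A and 5.56 in control B, 6.57 and 7.47 RPKM in shRNA1 A and B, and 3.796 and 5.21 RPKM in shRNA2 A and B. Both shRNA1 libraries lay above all others. With shRNA1 the log2 fold change was 0.46 (SE 0.16, limma adjusted p = 0.0834), and it passed the test without control B (0.62, adjusted p = 0.00355) and with the replicate block (0.0158), but not without control A (0.31, adjusted p = 0.129). The authors' deposited table gives it a log2 fold change of 0.50 with an adjusted p of 0.000714. With shRNA2 it was -0.14 (SE 0.20, adjusted p = 0.671). The gene SLC7A6OS overlaps SLC7A6 on the opposite strand in RefSeq and stood at 5.74 to 6.85 RPKM. The strand setting of the counting is not given in the sources used here, so reads from the overlap of this pair cannot be told apart.

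SLC3A2 (gene ID 6520), the heavy chain, measured 80.5 RPKM in control A and 141 in control B, 86.5 and 75.6 RPKM in shRNA1 A and B, and 68.8 and 57.3 RPKM in shRNA2 A and B. The shRNA2 libraries lay below all others, by 1.28-fold on average against control A and 2.24-fold against control B. SLC3A2 had a log2 fold change of -0.40 with shRNA1 (SE 0.24, limma adjusted p = 0.277) and -0.76 with shRNA2 (SE 0.26, adjusted p = 0.0867). Without control A the values were -0.80 with shRNA1 and -1.16 with shRNA2. Without control B they were 0.00629 and -0.36. With the replicate block the fall with shRNA2 passed (adjusted p = 0.0105). The noncoding gene SNHG1 lies within 1000 bases of SLC3A2 on the opposite strand and went from 83.4 and 79.6 RPKM in the control to 46.7 and 53.7 RPKM with shRNA1 and 40.8 and 41.5 RPKM with shRNA2.

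Within a library, the chains can be set against each other. These ratios were chosen after the values were seen and carry no test. SLC7A5 made up 76.1% and 81.2% of the RPKM of the 3 light chains in control A and B and 78.4% and 75.9% with shRNA1, but 51.5% and 51.8% with shRNA2. The share of SLC7A11 was 18.5% and 16.03% in the control libraries, 15.7% and 16.6% in those of shRNA1, and 43.0% and 40.2% in those of shRNA2. SLC7A5 was thus 4.11 and 5.07 times as abundant as SLC7A11 in control A and B, 4.99 and 4.57 times in the shRNA1 libraries, and 1.198 and 1.29 times in the shRNA2 libraries. Both shRNA2 libraries lay far from the other 4, which lay close together although control A and B differed in the level of each gene. The sum of these 3 light chains, the listed ones only, over SLC3A2 was 0.9995 and 1.43 in control A and B. It was 1.29 and 1.32 in the shRNA1 libraries and 1.01 and 1.14 in the shRNA2 libraries. On this ratio both hairpin groups lay within the range of the controls.

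**Figure D4:**
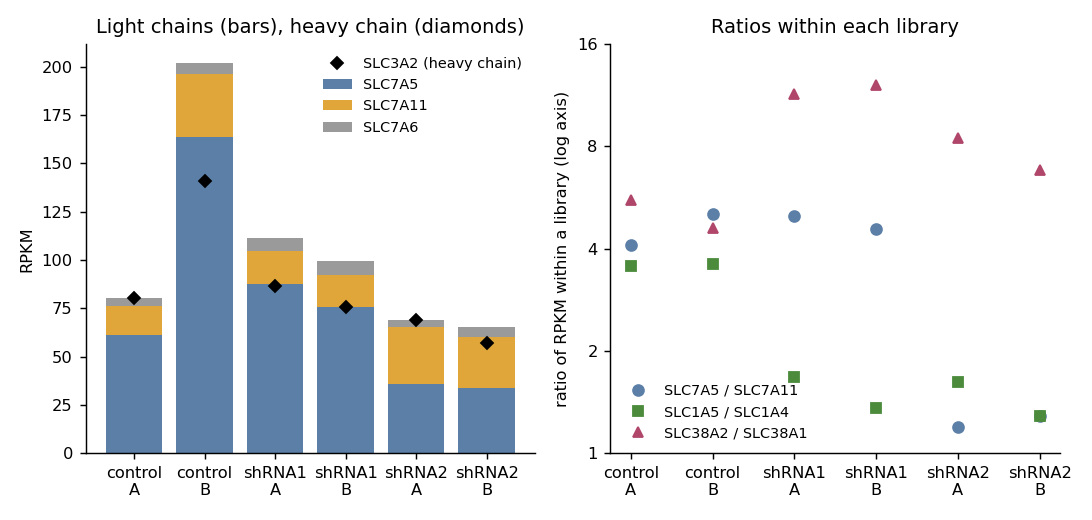
Left, RPKM of the 3 light chains stacked for each library (bars from 0), with SLC3A2 as diamonds; right, 3 ratios of RPKM within each library on a log axis. The ratio of SLC7A5 to SLC7A11 is 1.198 and 1.29 with shRNA2 and at least 4.11 elsewhere, and that of SLC1A5 to SLC1A4 is 3.56 and 3.61 in the control and at most 1.67 with either hairpin.

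SLC7A1 (gene ID 6541), the uniporter for arginine and lysine, fell with shRNA2. It measured 12.3 RPKM in control A and 27.2 in control B, 13.9 and 14.9 RPKM in shRNA1 A and B, and 5.52 and 6.51 RPKM in shRNA2 A and B. The shRNA2 libraries lay below all others, and the shRNA1 libraries lay between the controls. In log2 terms the change with shRNA2 was -1.53 (SE 0.32, limma adjusted p = 0.0222), which is 2.04-fold below control A and 4.53-fold below control B. It held without control B (-0.97, adjusted p = 0.00113) and without control A (-2.095) and was lost with robust empirical Bayes (adjusted p = 0.0571). With shRNA1 it was -0.34 (SE 0.32, adjusted p = 0.47). Without control A it was -0.90, and without control B it was 0.22.

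Of the exchangers of small neutral amino acids, SLC1A5 fell with shRNA2, and SLC1A4 was called with neither hairpin. SLC1A5 (gene ID 6510), which carries glutamine, measured 89.9 RPKM in control A and 154 in control B, 73.4 and 57.6 RPKM in shRNA1 A and B, and 59.7 and 44.9 RPKM in shRNA2 A and B. All 4 knock-down libraries lay below both controls. The log2 fold change was -0.85 with shRNA1 (SE 0.25, limma adjusted p = 0.0532) and -1.18 with shRNA2 (SE 0.27, adjusted p = 0.0272). With shRNA1 the value was just short of the threshold. SLC1A5 passed with the replicate block (adjusted p = 0.000255), limma-voom on recovered reads (0.0332), a filter at 5 RPKM (0.0462), median centring (0.0484) and all 6 libraries (0.0499). It did not pass with no filter on low values (0.0662), quantile normalization (0.0752), robust empirical Bayes (0.104) or a pseudocount of 0.1 (0.0534) or 1 (0.0533). The log2 fold change of SLC1A5 with shRNA1 was -1.24 without control A and -0.46 without control B. It was -1.03 without shRNA1 A and -0.68 without shRNA1 B. The authors' deposited table calls it with both hairpins, at log2 fold changes of -0.90 and -1.22. With shRNA2 it held without each library in turn, from -0.79 without control B (adjusted p = 0.0209) to -1.57 without control A.

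SLC1A4 (gene ID 6509), which exchanges alanine, serine and cysteine, measured 25.2 RPKM in control A and 42.7 in control B, 43.9 and 42.3 RPKM in shRNA1 A and B, and 36.9 and 34.8 RPKM in shRNA2 A and B. The knock-down libraries lay near or above control B with shRNA1 and between the controls with shRNA2. The log2 fold change was 0.39 with shRNA1 (SE 0.22, 95% interval -0.14 to 0.91, limma adjusted p = 0.252) and 0.12 with shRNA2 (SE 0.23, interval -0.42 to 0.67, adjusted p = 0.742). Without control B it was 0.76 with shRNA1 and 0.50 with shRNA2. Without control A it was 0.01 and -0.25. With the replicate block the rise of 0.39 with shRNA1 passed (adjusted p = 0.0362). SLC1A5 was 3.56 and 3.61 times as abundant as SLC1A4 in control A and B, 1.67 and 1.36 times in the shRNA1 libraries, and 1.62 and 1.29 times in the shRNA2 libraries. This ratio was close in the control libraries and lower in all 4 knock-down libraries. It was chosen after the values were seen, and the difference between the genes was not tested.

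SLC38A1 (gene ID 81539), a sodium-coupled glutamine transporter, was the member that fell with both hairpins. It measured 13.7 RPKM in control A and 23.9 in control B, 6.99 and 7.71 RPKM in shRNA1 A and B, and 6.17 and 7.46 RPKM in shRNA2 A and B. All 4 knock-down libraries lay below both controls, with the hairpin groups overlapping. The log2 fold change was -1.24 with shRNA1 (SE 0.24, limma adjusted p = 0.0163) and -1.35 with shRNA2 (SE 0.25, adjusted p = 0.0149). The mean with shRNA1 was 1.86-fold below control A and 3.25-fold below control B, and with shRNA2 it was 2.00-fold and 3.50-fold below. Without control B the log2 fold changes were -0.85 (adjusted p = 0.000162) and -0.96 (adjusted p = 0.00129), and without control A they were -1.635 and -1.74. Both calls held under each of the other settings and without each library in turn.

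SLC38A2 (gene ID 54407), its paralogue and known for being induced by amino acid shortage, fell with shRNA2. It measured 75.9 RPKM in control A and 109 in control B, 79.5 and 93.2 RPKM in shRNA1 A and B, and 52.1 and 50.9 RPKM in shRNA2 A and B. The shRNA1 libraries lay between the controls, and the shRNA2 libraries lay below all others. The log2 fold change was -0.82 with shRNA2 (SE 0.19, limma adjusted p = 0.0319) and -0.08 with shRNA1 (SE 0.19, 95% interval -0.52 to 0.35, adjusted p = 0.775). With shRNA2 it no longer passed without control B (-0.56, adjusted p = 0.0876), without shRNA2 B (-0.80, adjusted p = 0.0553) and with quantile normalization (-0.69, adjusted p = 0.0656). With shRNA1 the log2 fold change was -0.34 without control A. SLC38A2 was 5.57 and 4.59 times as abundant as SLC38A1 in control A and B, 11.4 and 12.1 times in the shRNA1 libraries and 8.45 and 6.83 times in the shRNA2 libraries.

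The hairpins were also compared with each other, which asks whether the transporters differ between 2 knock-downs that left unequal levels of TAZ. SLC7A1 and SLC38A2 were lower with shRNA2 than with shRNA1, by limma log2 fold changes of -1.196 (SE 0.30, adjusted p = 0.0403) and -0.74 (SE 0.18, adjusted p = 0.0363). That is 2 of 9 members that fell and 0 that rose, where 6.1% of 10660 genes fell and 4.78% rose, and the median of the 9 was -0.36, against -0.01 over all genes. By libraries, 6 members were lower with shRNA2 and 1 (SLC7A11) higher with no overlap, where 31.2% and 27.4% of all genes were.

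The other 7 did not pass in that comparison. SLC7A5 had -1.22 (95% interval -2.05 to -0.38, adjusted p = 0.0706), SLC7A6 -0.60 (interval -1.01 to -0.19, adjusted p = 0.0717) and SLC7A11 0.70 (interval 0.03 to 1.36, adjusted p = 0.17). The intervals of SLC3A2 (-0.91 to 0.18), SLC1A4 (-0.75 to 0.22), SLC1A5 (-0.91 to 0.26) and SLC38A1 (-0.64 to 0.43) hold 0 and also changes of some size, so equal levels are not shown. The fit used all 6 libraries, so the gap between control A and B entered the spread of these genes. Fitted on the 4 knock-down libraries alone, 4 members fell (SLC7A5, SLC7A6, SLC7A1 and SLC38A2) and SLC7A11 rose by 0.70 (adjusted p = 0.00752). In that fit 890 of 10646 genes fell and 718 rose, more than in the fit of all 6 libraries. The same 5 were called without control A and without control B, and the 4 that fell were called with the replicate block. Leaving out any 1 of the 4 knock-down libraries left 0 members called by limma, and the values of SLC7A1 then lay between -1.086 and -1.31 and those of SLC38A2 between -0.62 and -0.85.

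Profiles over the 6 libraries placed members beside genes outside the group. Likeness was measured as the root mean square distance between log2(RPKM + 0.5) profiles, each centred on its own mean, among 7532 genes that averaged 5 RPKM or more. This is a description of 6 libraries that share their controls. The nearest gene outside the group to SLC7A1 was BCAT1, the cytosolic branched-chain aminotransferase, at a distance of 0.0574, and to SLC7A5 it was GPT2, the mitochondrial alanine aminotransferase, at 0.161. SLC7A1 and SLC7A5 were each other's nearest member at 0.148. BCAT1 measured 11.3 RPKM in control A and 23.2 in control B, 11.7 and 13.4 RPKM in shRNA1 A and B, and 4.66 and 5.97 RPKM in shRNA2 A and B, which are almost the levels of SLC7A1 itself. The nearest gene to SLC1A5 was MLST8, a subunit of the mTOR complexes (0.101), and to SLC38A1 it was EIF4EBP1, a repressor of translation that mTOR complex 1 controls (0.196). SLC3A2 lay nearest to NT5M (0.0891), SLC38A2 to MTURN (0.0927), SLC1A4 to GFM1, a mitochondrial elongation factor (0.0709) and SLC7A11 to AGA, a lysosomal enzyme (0.185). SLC7A11 had the farthest profile from 5 of the other 8 members, SLC7A5, SLC3A2, SLC7A1, SLC1A5 and SLC38A2.

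Transcripts of known regulators were lower where they were called, though not each with both hairpins. Only RNA was measured, so the protein level or activity of these regulators is not known. Of 15 regulators of amino acid transport and stress 6 fell and 0 rose with shRNA1, where 8.58% of all genes fell and 9.99% rose. With shRNA2, 5 fell and 0 rose, where 7.61% of all genes fell and 8.12% rose. ATF4 measured 451 RPKM in control A and 602 in control B, 244 and 226 RPKM in shRNA1 A and B, and 186 and 166 RPKM in shRNA2 A and B, with limma log2 fold changes of -1.15 (adjusted p = 0.00768) and -1.56 (adjusted p = 0.00568). The call with shRNA1 was lost without shRNA1 B (-1.09, adjusted p = 0.0595). MYC measured 203 RPKM in control A and 240.0 in control B, 138 and 127 RPKM in shRNA1 A and B, and 57.4 and 68.7 RPKM in shRNA2 A and B, with log2 fold changes of -0.73 (adjusted p = 0.0147) and -1.805 (adjusted p = 0.00245). The MYC call with shRNA1 was lost without shRNA1 A (-0.79, adjusted p = 0.0658) and without shRNA1 B (-0.67, adjusted p = 0.159). MYC was 1.183-fold higher in control B than in control A and ATF4 was 1.33-fold higher, gaps below those of 9 and of 8 of the 9 members.

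TRIB3, a pseudokinase that restrains ATF4, fell by 1.47 and 1.48 (adjusted p = 0.00366 and 0.00583), and ATF3, a stress-induced repressor, had -1.87 and -1.399 (adjusted p = 0.00187 and 0.00586). Without control A or B the values were -1.70 or -1.23 for TRIB3 with shRNA1 and -1.68 or -2.06 for ATF3, and both calls held with each hairpin. CEBPB, a partner of ATF4, fell with shRNA1 by 0.83 (adjusted p = 0.0246, and 0.135 without shRNA1 B) and was at -0.42 with shRNA2 (adjusted p = 0.19, and 0.0407 without control A). EIF2AK4, the kinase that senses uncharged transfer RNA, was at -0.01 and -0.19 (adjusted p = 0.975 and 0.427). NFE2L2, the activator of antioxidant genes, was at 0.11 and 0.19 (adjusted p = 0.495 and 0.365). DDIT3, a stress factor downstream of ATF4, stood at 17.8 RPKM in control A and 6.53 in control B and between 5.76 and 7.86 RPKM in the knock-down libraries, with adjusted p of 0.176 and 0.404. It was the reverse of the transporters in that control A was the high one. The median log2 fold change of the regulators with shRNA1 was -0.12 without control A, -0.095 without control B and -0.13 without shRNA1 B. With shRNA2 the median was -0.30 without control A and -0.20 without control B. How many regulators were called moved with the library left out.

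Other targets of the amino acid response were lower where they changed. Of 14 tested 4 fell with shRNA1 and 10 with shRNA2, and 0 rose, with medians of -0.73 and -1.34. Over all genes 8.58% fell and 9.99% rose with shRNA1, and 7.61% fell and 8.12% rose with shRNA2. CHAC1 is among the 4 and the 10, but it passed the filter only through the control libraries. With a filter at 5 RPKM, which CHAC1 does not pass, 3 and 8 of the list fell, where 732 and 657 of 7520 genes fell. DDIT4, an inhibitor of mTOR complex 1, fell by 1.33 and 1.76 (limma adjusted p = 0.00563 and 0.00409, held without either control library), and SHMT2, the mitochondrial serine hydroxymethyltransferase, fell by 0.73 and 0.95 (adjusted p = 0.0345 and 0.0272). The SHMT2 call with shRNA1 was lost without shRNA1 A (0.0843) or B (0.166), and that with shRNA2 without control B (0.058) or shRNA2 B (0.0668). CHAC1, which degrades glutathione, measured 2.15 RPKM in control A, 13.0 in control B and under 1 RPKM in all 4 knock-down libraries, which is given as a description only. ASNS, asparagine synthetase, measured 31.6 RPKM in control A and 128 in control B, 23.6 and 24.8 RPKM in the shRNA1 libraries and 20.1 and 17.1 RPKM in the shRNA2 libraries. All 4 knock-down libraries lay below both controls, but with this gap its adjusted p was 0.11 and 0.0621. The log2 fold change of ASNS with shRNA1 was -2.38 without control A and -0.38 without control B, and with shRNA2 -2.755 and -0.75. Fits with 1 control leave out the gap between the controls, so only the sizes are given. With the replicate block, which does not absorb a gap seen in the controls alone, the adjusted p of ASNS was 3.02e-05 and 0.00335. The summed level of the list was 606 RPKM in control A and 1245 RPKM in control B, the same direction as for the transporters. Without control A 12 and 13 of the list fell with shRNA1 and shRNA2, and without control B 8 fell with each and 1 rose with shRNA1. Without shRNA1 B 2 fell with shRNA1, and without shRNA2 B 6 fell with shRNA2.

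**Figure D5:**
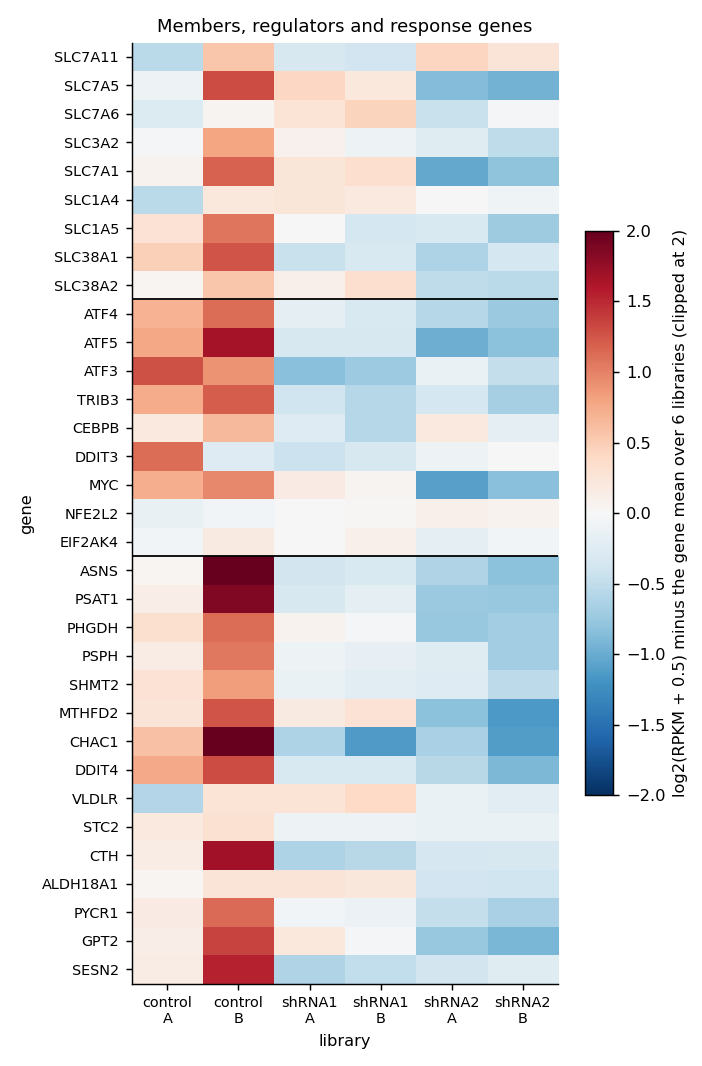
Log2(RPKM + 0.5) of each gene minus its mean over the 6 libraries, clipped at 2, for the 9 members (top block), 9 regulators (middle) and the analysed amino acid response targets (bottom), with libraries in columns. Control B holds the highest value of 7 of the 9 members, SLC7A11 is above its mean in both shRNA2 libraries, and ATF4 is above its mean in the controls only.

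A list of other plasma membrane transporters held amino acid transporters and some carriers of other substrates, such as SLC43A3. With shRNA1, 9 were tested, of which 1 rose and 1 fell. With shRNA2, 8 were tested, of which 1 rose and 2 fell. Of these 2, SLC7A2 passed the filter only through the control libraries, at 1.38 and 2.71 RPKM against 0.374 and 0.421 RPKM with shRNA2. The shares over all genes were 9.99% and 8.58% with shRNA1 and 8.12% and 7.61% with shRNA2, so these counts are near the background. With shRNA1, 0 rose and 0 fell without shRNA1 A or without shRNA1 B. SLC38A5, a glutamine and serine transporter of the same family as SLC38A1, measured 43.0 RPKM in control A and 41.4 in control B, 30.2 and 28.4 RPKM in shRNA1 A and B, and 16.2 and 12.9 RPKM in shRNA2 A and B. Its log2 fold changes were -0.52 (limma adjusted p = 0.0232) and -1.51 (adjusted p = 0.00268), with controls that differed by less than those of any member. The shRNA1 call was lost without shRNA1 A (adjusted p = 0.109) and without shRNA1 B (0.228). SLC43A3, which is known as a purine carrier, rose with shRNA1 by 0.61 (adjusted p = 0.0142, and 0.103 or 0.126 without shRNA1 A or B) and was at -0.34 with shRNA2 (adjusted p = 0.154), and SLC6A6, the taurine transporter, was at 0.28 (adjusted p = 0.188) and rose by 0.70 (adjusted p = 0.0325, and 0.204 without shRNA2 B).

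Inside the cell, lysosomal transporters and the amino acid sensors of mTORC1, the kinase complex of growth, were called about as often as all genes. Of 20 tested 3 rose and 2 fell with shRNA1, where 9.99% of all genes rose and 8.58% fell, and 2 rose and 0 fell with shRNA2, where 8.12% rose and 7.61% fell. Without shRNA1 B 0 rose and 0 fell with shRNA1, and with a filter at 5 RPKM 0 were called with shRNA2. SESN3, a sestrin that restrains mTORC1, rose by 1.02 and 1.76 (limma adjusted p = 0.00723, or 0.0517 without shRNA1 B, and 0.00245), and both calls held without either control library. SESN2, a leucine sensor that is also a response target, measured 8.21 RPKM in control A and 22.5 in control B and fell with shRNA1 by 1.39 (adjusted p = 0.0475, and 0.0538 without shRNA1 B). With shRNA2 it was at -1.15 (adjusted p = 0.0833). SLC36A1, a proton-coupled transporter of the lysosome, rose with shRNA1 by 0.82 (adjusted p = 0.0109, and 0.0505 or 0.068 without shRNA1 A or B) and was at 0.53 with shRNA2 (adjusted p = 0.0714, and 0.0252 without control B). Of 10 mitochondrial amino acid carriers 2 rose and 0 fell with shRNA1, and 1 rose and 0 fell with shRNA2, too few to set against the shares over all genes. The count was 0 with shRNA1 without shRNA1 A or shRNA1 B, and 0 with shRNA2 without shRNA2 B. SLC25A44, the carrier of branched-chain amino acids, rose by 0.75 and 0.68 (adjusted p = 0.0118 and 0.0262), with calls lost without shRNA1 A (0.0503), shRNA1 B (0.131) or shRNA2 B (0.172). SLC25A12, an aspartate and glutamate carrier, was at 0.43 and 0.37 (adjusted p = 0.067 and 0.128, and with shRNA1 0.0461 without control A and 0.0244 without control B), and SLC25A38, the glycine carrier, at -0.27 and -0.32 (adjusted p = 0.186 and 0.2).

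Of 12 enzymes that use the transported amino acids 4 fell and 0 rose with shRNA1, where 8.58% of all genes fell, and 2 fell and 0 rose with shRNA2, where 7.61% did. GOT2, the mitochondrial aspartate aminotransferase, fell by 0.47 and 0.77 (limma adjusted p = 0.0455 and 0.018). The GOT2 calls were lost without shRNA1 A (0.13) or B (0.389) and without shRNA2 B (0.0615). GCLC, the catalytic subunit of the first enzyme of glutathione synthesis, was at 0.40 and 0.47 (adjusted p = 0.0779 and 0.0716). It measured 13.5 RPKM in control A and 16.4 in control B and 19.7 to 21.1 RPKM in the knock-down libraries. Without control B GCLC was at 0.54 and 0.61, and without control A it was at 0.26 and 0.34. ARG2, the mitochondrial arginase, was at -0.56 and -0.75 (adjusted p = 0.108 and 0.106). Without control B ARG2 was lower by 0.84 and 1.03, and without control A it was at -0.28 and -0.47. With the replicate block both genes were called with both hairpins, at adjusted p of 0.0167 and 0.0112 for GCLC and 0.018 and 0.00583 for ARG2. The count with shRNA1 was 0 without shRNA1 B and 1 without shRNA1 A, where fewer of all genes were called as well.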

How the data were processed

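The authors deposited 1 table per hairpin with the RPKM of its 4 libraries, 13004 rows each, and identical control columns in both. Per the file headers, the authors also deposited a log2 fold change, a likelihood-ratio score and a p-value with its adjusted value for each gene. Per the submitters' processing notes, the build was hg19 and the tools were TopHat2 2.0.11, Trim Galore 0.4.0, edgeR 3.8.6, DESeq 1.18.0 and HTSeq 0.6.1p2, with no role stated. Not given in the sources used here are the strand setting and the authors' gene filter. Symbols that had become dates (21) were restored by gene ID and 2 repeats dropped, leaving 13002 genes. Whole reads were recovered from the RPKM steps for 100% of them (within 0.05 reads), and they gave the depths.

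Each hairpin was compared with control on log2(RPKM + 0.5) by limma 3.58.1 (R 4.3.3) with a variance trend, over its 4 libraries and the genes that averaged 1 RPKM or more. Hairpin against hairpin used all 6 libraries. Tests were two-sided, Benjamini-Hochberg adjusted over all genes tested, threshold 0.05, and every adjusted p not credited to the authors is limma's. Fold changes on this scale understate the change of low genes. The scripts were tested on simulated data. Alternatives were other pseudocounts, filters and scalings, the replicate block, robust empirical Bayes, limma-voom on recovered reads, another set of libraries, and each library left out. With 1 library left out, the lone library of its group is assumed to vary like the other group's. For most members control A and B differed more than the libraries of a hairpin did, so fits with 1 control understate their spread. Members and gene lists were chosen with earlier results of these data known. All members and 8 fixed regulators and targets are named, plus up to 3 genes per list with the smallest larger p of the hairpin comparisons, and the nearest profile of 8 members. NCAM1, PECAM1, and the line markers were given as a check of the cells. A marker gene and a nearest-profile gene are not reported here.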

Additional observations from a re-analysis of the deposited data

Results flagged for a closer look

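Both hairpins were compared with the same control, and 2 members differed between the hairpins by a direct test in limma over all 6 libraries. SLC7A1, the cationic amino acid transporter, had a log2 fold change of -1.196 for shRNA2 over shRNA1 (adjusted p = 0.0403), with both shRNA2 libraries below both shRNA1 libraries. SLC38A2, the sodium-coupled neutral amino acid transporter, had a log2 fold change of -0.7355 for the same contrast (adjusted p = 0.0363), again with no overlap of the libraries. With all libraries kept, SLC7A1 did not pass with no filter on low values (adjusted p = 0.051) or with robust empirical Bayes (0.0932). With quantile normalization SLC38A2 did not pass (adjusted p = 0.0588), while SLC7A6 did (0.0474). Both calls were lost when any 1 knock-down library was left out, with adjusted p of 0.106 to 0.215 for SLC7A1 and 0.117 to 0.259 for SLC38A2.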

How the results depend on the processing

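Members called with shRNA1 (1 as reported) were 2 with a filter at 5 RPKM, with median centring, with limma-voom and with the fit of all 6 libraries, and 1 to 7 with a library left out (7 without control A, 5 without control B). Members called with shRNA2 (5) were 3 with quantile normalization and with robust empirical Bayes, 4 with no filter, and 4 to 6 with a library left out. Between hairpins (2) the count was 1 with no filter and with robust empirical Bayes, 3 with limma-voom (SLC7A5 added), 5 with the fit of 4 libraries, and 0 to 5 with a library left out (0 without any 1 of the 4 knock-down libraries, 5 without control A or B).

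The number of all genes called moved with the setting as well. With shRNA1, 1060 rose and 911 fell as reported, and 1241 and 966 with limma-voom. With shRNA2, 865 rose and 811 fell as reported, and 940 and 872 with robust empirical Bayes. Between hairpins 510 rose and 650 fell as reported, and 718 and 890 with the fit of 4 libraries. Fold changes turned sign only when a library was left out. With shRNA1 the log2 values ran from -0.91 to 0.19 for SLC7A11, -1.005 to 0.41 for SLC7A5, -0.80 to 0.00629 for SLC3A2, -0.90 to 0.22 for SLC7A1, -0.34 to 0.18 for SLC38A2 and -0.12 to 0.11 for EIF2AK4. With shRNA2 they ran from -0.21 to 0.89 for SLC7A11, -0.34 to 0.0693 for SLC7A6, -0.25 to 0.50 for SLC1A4 and -1.18 to 0.20 for DDIT3. Between hairpins SLC38A1 ran from -0.23 to 0.0216. SLC38A1 turned without shRNA2 A, and SLC7A6, SLC38A2 and EIF2AK4 turned without control B and also without library A of the hairpin. The others turned without a control library. The cause was not tested.

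Libraries A and B share letters across groups, and no label says that a letter marks a shared batch or day. Their deviations from the group means correlated across 10660 genes at 0.26, 0.423 and 0.367. With the letter as a replicate block, 4 members were called with shRNA1 (2 rose, SLC7A6 and SLC1A4, and 2 fell), 6 with shRNA2 and 4 between the hairpins, while over all genes 1914, 2006 and 1102 rose and 1866, 2164 and 1294 fell. Alternatives for genes that are not members were added after the data were seen. Each member rested on 469 to 15085 reads in a library, and 2 libraries a group limit what can be called.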
